A study of Mus musculus with 6 samples.

Results

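The nuclear genes that encode subunits of the mitochondrial respiratory chain were measured in tumor-infiltrating Tregs with and without Ku70, the DNA end-binding protein encoded by Xrcc6. Members were matched by gene symbol: Nduf genes of the a, b, c, s and v series for complex I, Sdha to Sdhd for complex II, Uqcr genes and Cyc1 for complex III, Cox4 to Cox8 genes for complex IV, and Atp5 genes for complex V. The symbol rule itself uses no measured value, but the members were chosen with earlier results of these data known. This rule found 83 of the 15319 gene symbols listed, of which 38 belonged to complex I, 4 to complex II, 9 to complex III, 15 to complex IV and 17 to complex V. WT mice carried Foxp3Yfp-Cre and cKO mice carried Xrcc6flox/floxFoxp3Yfp-Cre, so that the Cre recombinase fused to Yfp was driven from the Foxp3 locus in both groups and the floxed Xrcc6 allele was present in the cKO group only. Mice of both genotypes were 8 to 10 weeks old when LLC, a mouse lung carcinoma line, was injected into the tail vein, and Tregs were isolated from the lung-colonizing tumors 21 days later. Bulk RNA-Seq gave 3 libraries per group. The gate used to sort Tregs from tumors is not given in the sources used here. How many mice went into a library, and whether each library came from a separate mouse, is not given in the sources used here, so the p-values measure only the spread between these libraries.

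Oxidative phosphorylation moves electrons from NADH through complex I, or from succinate through complex II, to ubiquinone, then through complex III and cytochrome c to complex IV, where oxygen is reduced. Proton pumping by complexes I, III and IV builds the gradient that complex V, the ATP synthase, uses to make ATP. Mitochondrial DNA encodes a small core of subunits in every complex except complex II, and nuclear genes encode all the others. Tregs are known for a reliance on oxidative phosphorylation, and complex III is known to be needed for their suppressive function.

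Levels are given in CPM, the usual unit of a count relative to its library total, computed from the deposited expected counts with library totals scaled by edgeR's TMM method. The targeted gene was low in every cKO library: Xrcc6 had 5.24, 3.51 and 4.18 CPM there, against 20.9, 63.1 and 23.8 CPM in the WT group (replicates 1, 2 and 3 in this order, here and throughout). By an exact permutation test, two-sided, p was 0.1, which is the lowest that 3 libraries against 3 allow. Library totals lay between 19032620 and 23159815 counts. WT replicate 2 stood apart: 11513 genes had a count there against 14442 to 14737 in the other libraries, and it lacked any count for 31.4% of the 1168 genes whose mean elsewhere was 2 to 5 CPM. Group counts, medians and the fold changes given are therefore stated with and without that library. Foxp3, the transcription factor that defines Tregs, was at 150 to 241 CPM in the WT group and 189 to 282 CPM in the cKO group.

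The median of each of the 5 complexes was slightly above 0 for cKO over WT when all 6 libraries were used. When WT replicate 2 was left out it was slightly below 0 in complexes I, III, IV and V and 0.00 in complex II, and in neither case did a member pass an adjusted p of 0.05. With all libraries, edgeR placed 66 of the 83 members (79.5%) above 0, with a median log2 fold change of 0.15 for cKO over WT. Over all 15315 genes tested the same share was 54.5% and the median was 0.04. Without WT replicate 2, 14 of the 83 members (16.9%) were above 0 and the median was -0.11, against 48.6% and -0.01 over the 15302 genes tested. The sign turned from positive to negative in 53 members, and from negative to positive in 1 member, Ndufa9, a complex I accessory subunit. The turn from positive to negative took in 63.9% of members and 18.8% of all genes. In bulk RNA, fewer cells of a type and less RNA per cell cannot be told apart.

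No call at an adjusted p under 0.05 was made for any member by the quasi-likelihood test of edgeR (Benjamini-Hochberg adjusted) in either fit. With all libraries the share of all genes called was 0.0%, and without WT replicate 2 it was 0.00654%, a single gene, Xrcc6. At an unadjusted p under 0.05, 0 members were higher and 0 were lower with all libraries, where 0.94% of all genes were higher and 0.868% were lower. Without WT replicate 2, 0 members were higher and 1 was lower, against 1.52% and 1.5% of all genes. DESeq2 called 0 members at that threshold with all libraries, where it called 2.0% of genes, and 1 member without WT replicate 2, where it called 2.42%. The WT and cKO ranges of all members overlapped with all libraries, while 5.01% of all genes had every cKO library above every WT library and 3.23% had every one below. Without WT replicate 2, 0 members lay wholly higher and 2 members wholly lower in the cKO group, Cox6b2 and Ndufb4b, both near 2 CPM or less, against 8.48% and 7.53% of genes.

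**Figure D1:**
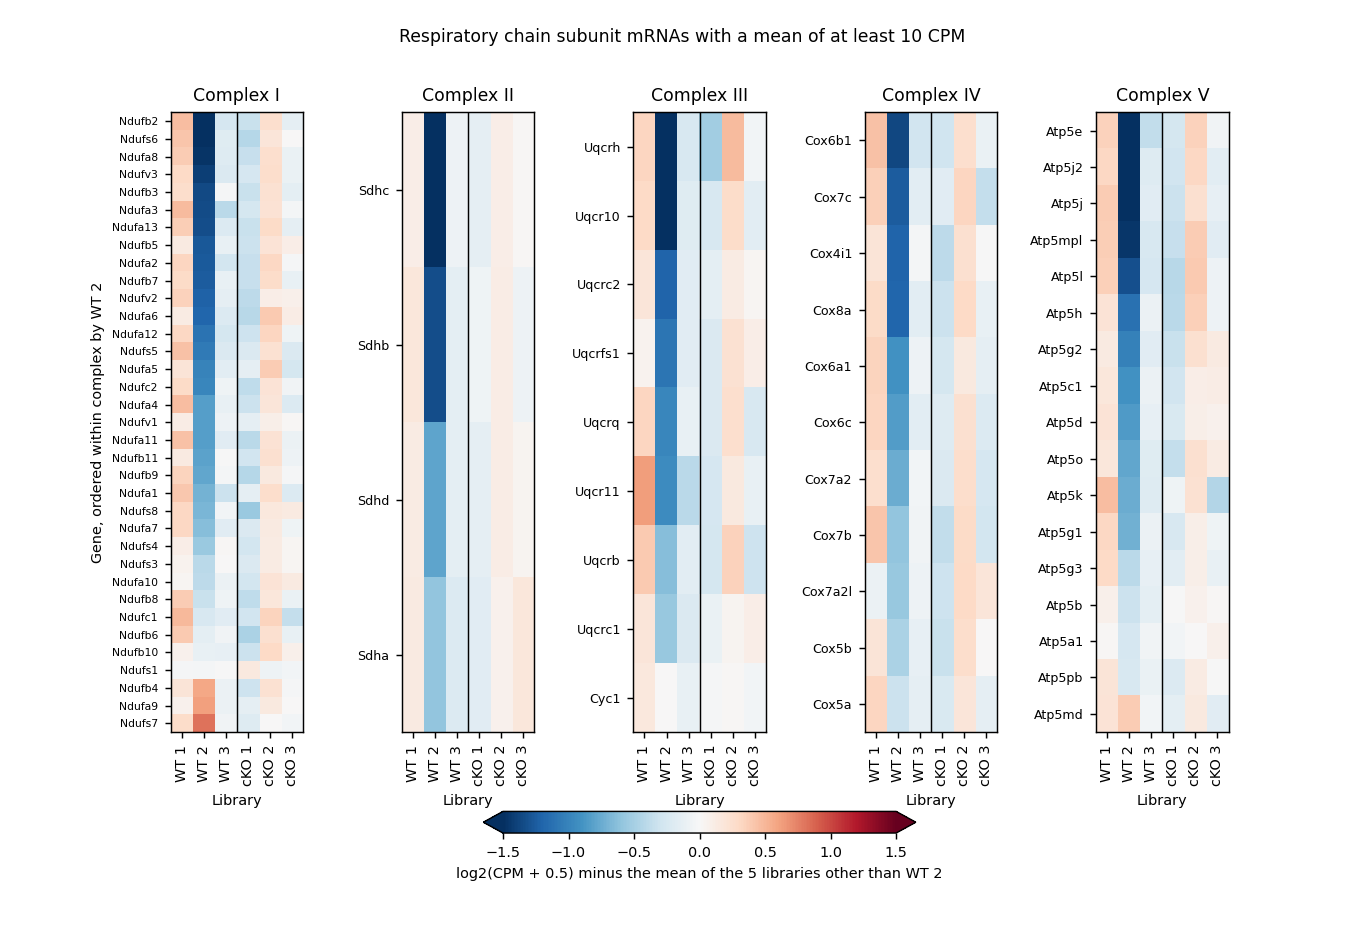
Level of subunit mRNAs with a mean of at least 10 CPM in each library (columns), as log2(CPM + 0.5) minus the mean of the 5 libraries other than WT 2, with genes in rows ordered by WT 2 within each complex. WT 2 is the darkest blue column in every complex, while Ndufs7, Ndufa9, Ndufb4 and Atp5md are the genes that are highest in it.

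The spread within the WT group was set by replicate 2 in most members. It held the lowest of the 6 values in 67 of the 83 members, against 42.7% of all genes, and the highest in 4 members. Relative to the mean of WT replicates 1 and 3 on the log2(CPM + 0.5) scale, WT replicate 2 differed by a median of -0.92 over the members, with medians of -0.90, -1.06, -1.05, -0.85 and -0.89 for complexes I, II, III, IV and V. The summed level of all members was 15884 CPM in WT replicate 1, 7772 CPM in WT replicate 2 and 12237 CPM in WT replicate 3. In cKO replicates 1, 2 and 3 it was 11313, 15599 and 13267 CPM. The group means were 11964 ± 4063 CPM in WT and 13393 ± 2146 CPM in cKO (SD, n = 3), and 14061 CPM in the WT group without replicate 2. The sums of the cKO replicates all lay between the lowest and the highest WT sum.

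The remaining libraries also had an order that most members shared. WT replicate 1 was above WT replicate 3 in 78 of 83 members, and cKO replicate 2 was the highest of its group in 74 of 83. The median deviation of the members from the mean of the 5 libraries other than WT replicate 2, on the log2(CPM + 0.5) scale, was 0.29, -0.83 and -0.13 in WT replicates 1, 2 and 3. It was -0.27, 0.22 and -0.05 in cKO replicates 1, 2 and 3. The same median over all genes tested was -0.17 in WT replicate 2 and between -0.01 and 0.01 in the other libraries, and over the 8447 genes with at least 10 CPM it lay between -0.03 and 0.02 in all 6. The medians of cKO replicates 1 and 2 therefore lay farther apart than the median log2 fold change between the groups in either fit. Other genes with short transcripts shared this order, in medians over genes with at least 10 CPM. For longest annotated transcripts of up to 600 bp, cKO replicate 2 minus cKO replicate 1 was 0.59 in members and 0.59 in other genes. WT replicate 1 minus WT replicate 3 was 0.56 and 0.35. Between 600 and 1000 bp these medians were 0.56 and 0.42 for cKO, and 0.41 and 0.25 for WT. In longer classes the members kept the order more than other genes did. Between 1000 and 2000 bp the medians were 0.39 and 0.17 for cKO, and 0.31 and 0.15 for WT. For 2000 to 4000 bp they were 0.24 and -0.02 for cKO, and 0.18 and 0.07 for WT. Above 4000 bp, with 2 members, they were 0.46 and -0.16 for cKO, and 0.55 and -0.13 for WT. Over any length they were 0.51 for cKO and 0.39 for WT in members, and -0.03 and 0.04 in other genes. The part of transcript length in this order was not tested.

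**Figure D2:**
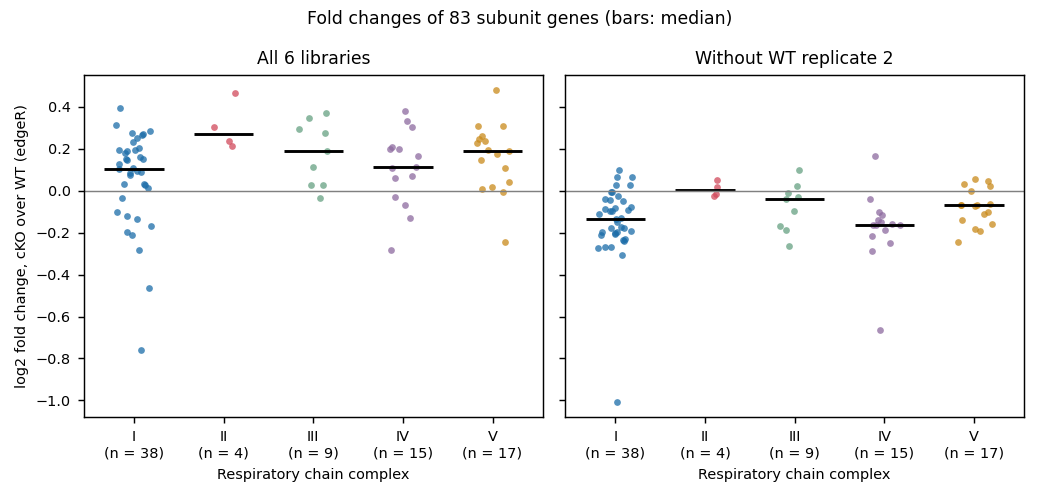
log2 fold change of cKO over WT from edgeR for each of the 83 members by complex, with all 6 libraries (left) and without WT replicate 2 (right), with a bar at the median. The medians of all 5 complexes lie above 0 on the left, from 0.10 in complex I to 0.27 in complex II, and on the right they lie between -0.16 in complex IV and 0.00 in complex II.

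Complex I oxidizes NADH and was the largest group. Its 7 nuclear core subunits, which hold the flavin and the iron-sulfur clusters, had a median log2 fold change of 0.03 with all libraries and -0.10 without WT replicate 2. The other 31 genes that the symbol rule placed in complex I had medians of 0.13 and -0.14. Beside accessory subunits, they include Ndufa4, since placed in complex IV, and the Ndufb4 copies Ndufb4b and Ndufb4c. Ndufs7, the core subunit next to the ubiquinone site, is encoded on chromosome 10 of GRCm38 (80249121 to 80256794) and had the smallest p of all members with all libraries. The WT libraries had 130, 188 and 103 CPM, and the cKO libraries 93.4, 107 and 104 CPM. WT replicate 2 was the highest library for this gene, and cKO replicates 2 and 3 fell within the range of the WT group. Its log2 fold change was -0.47 (SE 0.22, unadjusted p = 0.0747, adjusted p = 0.984) with all libraries and -0.20 (SE 0.15) without WT replicate 2.

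Ndufs1, which carries iron-sulfur clusters, was the steadiest member of complex I. It was at 50.9, 50.5 and 51.3 CPM in WT and 57.0, 48.9 and 50.3 CPM in cKO, with log2 fold changes of 0.03 (SE 0.14) and 0.03 (SE 0.13) in the fits with and without WT replicate 2. WT replicate 2 lay close to the other WT values for this subunit. Ndufv1 and Ndufv2, which form the NADH-oxidizing module, were at 43.6 and 53.9 CPM in WT replicate 2, against 73.8 to 84.0 CPM for Ndufv1 and 115 to 160 CPM for Ndufv2 in the other WT libraries. The log2 fold change of Ndufv1 was 0.21 (SE 0.24) with that library and -0.03 (SE 0.14) without it, and for Ndufv2 it was 0.15 (SE 0.36) and -0.18 (SE 0.21). Ndufs3 and Ndufs8, core subunits of the peripheral arm, had log2 fold changes of 0.09 (SE 0.18) and 0.03 (SE 0.29) with all libraries, and -0.04 (SE 0.15) and -0.19 (SE 0.23) without WT replicate 2.

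Among the accessory subunits of complex I the most abundant were Ndufa6, Ndufa2 and Ndufb5. Ndufa6 was at 270, 109 and 216 CPM in WT and at 187, 326 and 268 CPM in cKO, so that the lowest cKO library was below WT replicates 1 and 3. Its log2 fold change was 0.39 (SE 0.35) with all libraries, the highest of complex I, and 0.10 (SE 0.24) without WT replicate 2. The corresponding values were 0.27 (SE 0.38) and -0.05 (SE 0.24) for Ndufa2, and 0.31 (SE 0.35) and -0.00 (SE 0.19) for Ndufb5. Ndufb4 was at 23.8, 31.1 and 19.4 CPM in WT and 16.5, 24.2 and 20.3 CPM in cKO, and Ndufb6 at 67.5, 46.2 and 49.7 CPM and 36.8, 60.8 and 47.7 CPM. Both had overlapping groups. Ndufb4b, a copy of Ndufb4 whose deposited counts were not all whole numbers, was at 2.34, 1.27 and 2.55 CPM in WT and 0.928, 1.15 and 1.56 CPM in cKO. Without WT replicate 2 its log2 fold change was -1.01 (SE 0.40, unadjusted p = 0.0328, adjusted p = 0.997), the only unadjusted call among the members in the 2 fits, and because reads shared with Ndufb4 and Ndufb4c may have been divided among the copies by estimation, it is uncertain.

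Complex II, succinate dehydrogenase, is the one complex that belongs to both the TCA cycle and the respiratory chain. Sdha, the flavoprotein that binds succinate (chromosome 13, 74322254 to 74350280), was at 265, 160 and 208 CPM in WT and 213, 250 and 270 CPM in cKO. Sdhb, the iron-sulfur subunit (chromosome 4, 140961203 to 140979193), was at 143, 50.3 and 115 CPM in WT and 122, 138 and 121 CPM in cKO. Sdhd, a membrane anchor (chromosome 9, 50596357 to 50603812), was at 88.9, 47.0 and 74.1 CPM in WT and 74.6, 88.8 and 84.1 CPM in cKO. For each of these subunits the cKO values were close to those of WT replicates 1 and 3, and WT replicate 2 was the lowest library. Their log2 fold changes were 0.22 (SE 0.21), 0.30 (SE 0.34) and 0.24 (SE 0.23) with all libraries, and 0.05 (SE 0.18), -0.02 (SE 0.15) and 0.02 (SE 0.15) without WT replicate 2, in the order Sdha, Sdhb and Sdhd.

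The largest fall in WT replicate 2 within complex II was in Sdhc, the second membrane anchor (chromosome 1, 171127165 to 171150603). It was at 67.1, 9.54 and 59.1 CPM in WT, and at 56.8, 67.3 and 63.4 CPM in cKO. WT replicate 2 thus held 15.1% of the mean of the other WT libraries. The log2 fold change of Sdhc was 0.47 (SE 0.59) with all libraries and -0.01 (SE 0.14) without WT replicate 2. The 4 subunits together had a median of 0.27 with all libraries, where all 4 were above 0, and 0.00 without WT replicate 2, where their range was -0.02 to 0.05 and their standard errors were 0.14 to 0.18.

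**Figure D3:**
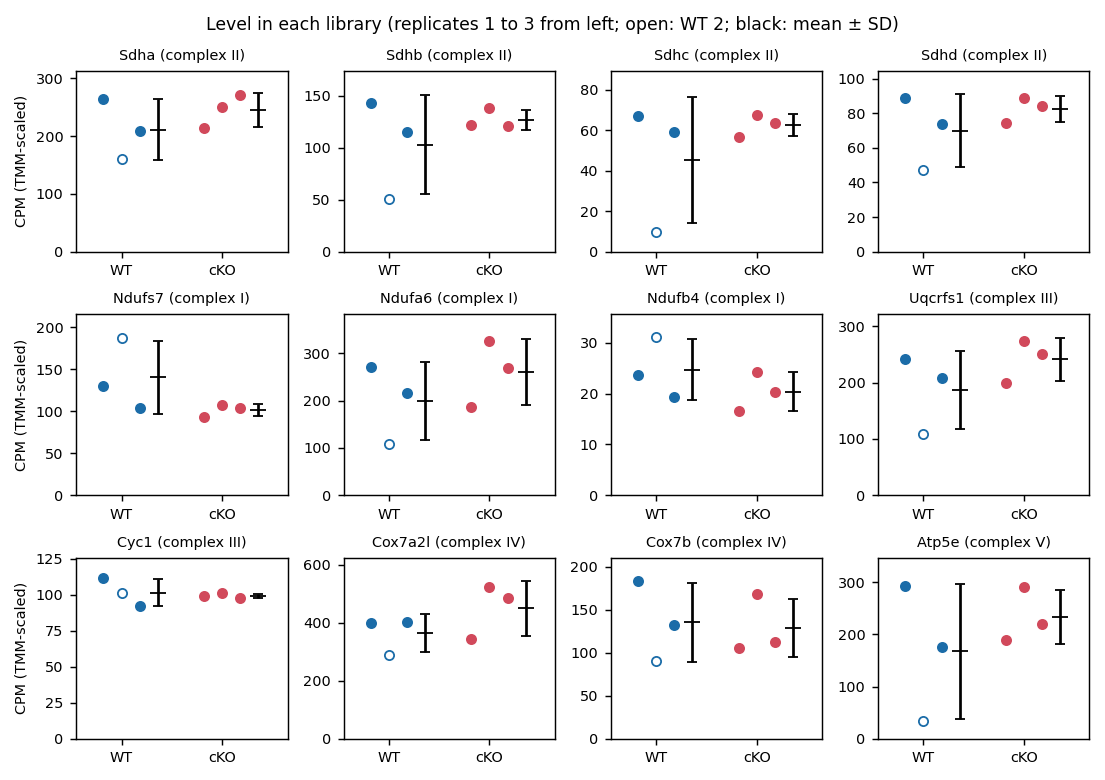
CPM of 12 members in each library, with WT in blue, cKO in red, WT replicate 2 as an open circle and the mean ± SD (n = 3) in black. WT 2 is lowest for all 4 Sdh genes, Ndufa6, Uqcrfs1, Cox7a2l, Cox7b and Atp5e, is highest for Ndufs7 and Ndufb4, and lies within the WT range for Cyc1.

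Complex III passes electrons from ubiquinol to cytochrome c. Cyc1, which carries the heme of cytochrome c1 (chromosome 15, 76343523 to 76346260), was at 111, 101 and 92.5 CPM in WT and 99.1, 101 and 97.6 CPM in cKO. Its log2 fold changes were -0.03 (SE 0.13) and -0.04 (SE 0.14), and these standard errors were the smallest of this complex in each fit. Uqcrfs1, the Rieske iron-sulfur protein, was at 243, 109 and 208 CPM in WT and 200, 273 and 250 CPM in cKO, with log2 fold changes of 0.37 (SE 0.30) and 0.10 (SE 0.18). The core proteins Uqcrc1 and Uqcrc2 were at 135 and 72.1 CPM in WT replicate 2, against 172 to 227 CPM and 147 to 188 CPM in the other WT libraries and 187 to 216 CPM and 150 to 181 CPM in cKO. Uqcrh, the hinge protein at the cytochrome c docking site, was at 319, 80.2 and 217 CPM in WT and 178, 356 and 249 CPM in cKO. For Uqcrh the cKO group spanned a wider range than WT replicates 1 and 3. The 5 accessory subunits all had a positive log2 fold change with all libraries (median 0.11) and a negative one without WT replicate 2 (median -0.17).

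Complex IV, cytochrome c oxidase, contains nuclear subunits that exist in broadly expressed and tissue-restricted isoforms. The broadly expressed forms made up nearly all of the signal here. Cox4i1, a regulatory subunit, was at 717, 270 and 611 CPM in WT and 475, 739 and 620 CPM in cKO, while its isoform Cox4i2 had at most 3 counts in any library. Cox6a1 was at 402, 169 and 302 CPM in WT and 267, 353 and 290 CPM in cKO, and Cox6a2, the isoform of heart and skeletal muscle, was at no more than 0.756 CPM. Cox7a2 was at 132 to 266 CPM and the muscle isoform Cox7a1 at no more than 0.356 CPM. Cox6b1 was at 162 to 567 CPM, and the testis isoform Cox6b2 was at 2.10, 0 and 1.98 CPM in WT and 1.35, 1.97 and 1.82 CPM in cKO. At 0 counts, WT replicate 2 allows up to 3 counts for Cox6b2, a limit that covers counting error only. Cox4i2, Cox6a2 and Cox7a1 were the 3 members that did not pass edgeR's filterByExpr with a minimum count of 10. Cox7b2, Cox8b, Cox8c and Ndufa4l2 were not analysed here.

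Cox8a, a small membrane subunit of the oxidase (chromosome 19, 7215153 to 7217616), was the most abundant member of complex IV. It was at 839, 301 and 612 CPM in WT and 549, 844 and 634 CPM in cKO, with log2 fold changes of 0.21 (SE 0.37) and -0.10 (SE 0.24) with and without WT replicate 2. Cox7a2l, known for a link to supercomplexes of complexes III and IV that was not measured here, was at 400, 288 and 404 CPM in WT and 343, 523 and 484 CPM in cKO. Its log2 fold changes were 0.31 (SE 0.23) and 0.16 (SE 0.21), and it was the only member of complex IV above 0 without WT replicate 2. Cox7b was at 183, 90.7 and 132 CPM in WT and 106, 168 and 113 CPM in cKO. It had log2 fold changes of -0.07 (SE 0.29) and -0.29 (SE 0.23), and its groups overlapped. Ndufa4, named for complex I and since placed in complex IV, was at 169, 68.7 and 114 CPM in WT and 98.1, 139 and 106 CPM in cKO, with log2 fold changes of -0.03 (SE 0.32) and -0.30 (SE 0.21).

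Complex V makes ATP at its F1 head, which is joined to the membrane by a stalk. Atp5b, the catalytic beta subunit (chromosome 10, 128083273 to 128090391), was at 817, 618 and 698 CPM in WT and 769, 809 and 782 CPM in cKO, the highest mean CPM over the 6 libraries of any member. Atp5a1, the alpha subunit, was at 514, 426 and 490 CPM in WT and 494, 509 and 538 CPM in cKO. In these large F1 subunits the fall in WT replicate 2 was small, and their log2 fold changes were 0.15 (SE 0.18) and 0.11 (SE 0.16) with all libraries and 0.05 (SE 0.17) and 0.03 (SE 0.15) without it. Atp5e, the small epsilon subunit of F1 (chromosome 2, 174461072 to 174464105), was at 292, 34.1 and 176 CPM in WT and 190, 290 and 221 CPM in cKO. WT replicate 2 held 14.6% of the mean of the other WT libraries for Atp5e. Its log2 fold change was 0.48 (SE 0.63) with all libraries, the largest of the 83 members, and -0.00 (SE 0.25) without WT replicate 2.

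The c ring, which turns as protons pass, is encoded by 3 genes with the same mature protein. Atp5g2 was at 709, 321 and 577 CPM in WT and 513, 768 and 710 CPM in cKO. Atp5g3 was at 215, 133 and 161 CPM and 157, 187 and 163 CPM, and Atp5g1 at 199, 97.3 and 152 CPM and 136, 170 and 154 CPM. WT replicate 2 was the lowest library for all 3. Per kb of the longest annotated transcript, the mean level was 797 CPM for Atp5g2, 234 CPM for Atp5g3 and 32.1 CPM for Atp5g1, whose longest transcript of 4715 bp includes an extended form. The counts of Atp5g2 were not all whole numbers, so its reads may have been shared with other loci. The 4 stalk subunits had medians of 0.21 and -0.07, and the 5 small membrane subunits 0.25 and -0.11, in the fits with and without WT replicate 2. Of the latter, Atp5md, a small membrane subunit also known as Usmg5, was highest in WT replicate 2, at 185, 208 and 156 CPM in WT and 145, 178 and 142 CPM in cKO (log2 fold changes -0.24, SE 0.17, and -0.14, SE 0.16, with and without WT replicate 2). It overlaps Taf5 on the other strand, and strandedness of the counting is not given in the sources used here.

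Per kb of the longest annotated transcript, the highest mean levels over the 6 libraries were 1145 CPM for Cox8a, 797 CPM for Atp5g2, 748 CPM for Cox4i1, 639 CPM for Atp5l, a small membrane subunit of complex V, and 620 CPM for Cox6b1. Among members with at least 10 CPM, the lowest were Ndufb2 at 8.75 CPM per kb, Sdhc at 17.0 CPM per kb and Ndufs1 at 19.3 CPM per kb. These values depend on the annotated length, since Ndufb2 has a longest transcript of 4371 bp. A gene on the other strand overlapped 29 members, and the 53 annotated members without one had medians of 0.15 and -0.11 in the fits with and without WT replicate 2, the same as all 83. The 72 members with whole counts had medians of 0.16 and -0.11.

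The members share short transcripts. Among genes with at least 10 CPM and an annotated length, the longest transcript had a median of 908 bp over 77 members and 3114 bp over 8363 genes. The level of WT replicate 2 moved with this length in other genes too. For transcripts of up to 600 bp, its median difference from WT replicates 1 and 3 on the log2(CPM + 0.5) scale was -1.15 over 15 members and -1.23 over 66 other genes. Between 600 and 1000 bp the medians were -1.01 over 28 members and -0.70 over 332 other genes, and between 1000 and 2000 bp they were -0.81 over 25 members and -0.12 over 1649 other genes. For 2000 to 4000 bp they were -0.37 over 7 members, of which Atp5md alone was above 0, and 0.04 over 3371 other genes. Above 4000 bp only 2 members remained, Ndufb2 and Atp5g1, with a median of -1.78, against 0.10 over 2868 other genes. The median of the members was close to that of other genes in the shortest class and below it in each longer class, and the part of transcript length in the result was not tested.

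**Figure D4:**
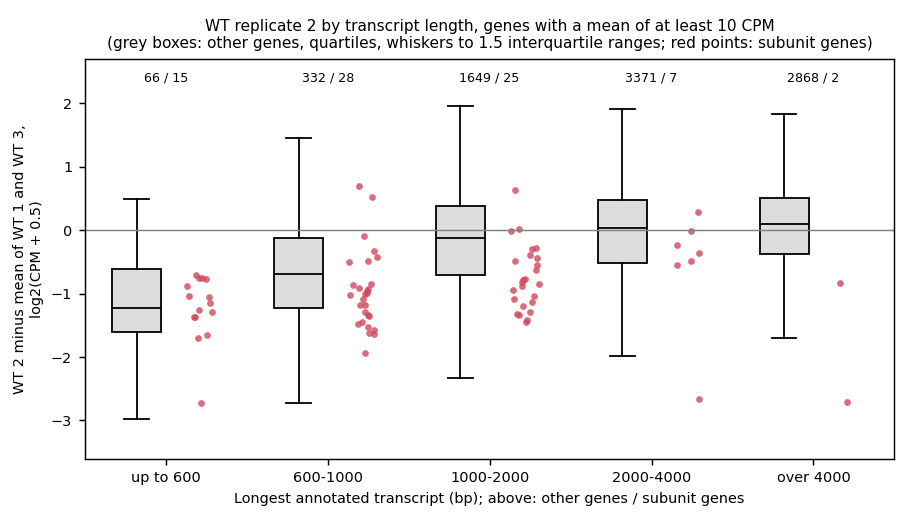
Difference of WT replicate 2 from the mean of WT replicates 1 and 3 on the log2(CPM + 0.5) scale (vertical axis) by length of the longest annotated transcript in bp (horizontal axis), for genes with at least 10 CPM. Grey boxes show the quartiles of other genes and red points the subunit genes. The boxes rise from a median of -1.23 up to 600 bp to 0.10 above 4000 bp, and most red points lie below 0 in every class.

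Promoters of the members were read for short motifs, beside those of all genes matched. The part of these motifs in the levels was not tested. RefSeq start sites on GRCm38.p6, each with 250 bases before and 50 after it, were matched for 67 of the 83 members and for 12030 genes tested. The palindrome GCGCATGCGC bound by NRF1, a regulator of respiratory genes, was found on either strand in 5 members (7.46%) and in 2.02% of all these genes. Its shorter form GCATGCGC, which the palindrome contains, was present in 10 members (14.9%) and 5.27% of genes. The ETS-type motif CCGGAAG, read by GABP (NRF2), was in 17 members (25.4%) against 17.6%, and the YY1 motif AAGATGGCG in 7 members (10.4%) against 3.02%, each on either strand. The stretches before the start site that hold the palindrome are shown for 4 members, with the palindrome in capitals, 5′ to 3′ on the strand of the gene:
Atp5k, chr5:108434400-108434494, minus strand: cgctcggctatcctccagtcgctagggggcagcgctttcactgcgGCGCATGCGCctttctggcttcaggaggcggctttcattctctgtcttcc
Cox6a1, chr5:115349066-115349165, minus strand: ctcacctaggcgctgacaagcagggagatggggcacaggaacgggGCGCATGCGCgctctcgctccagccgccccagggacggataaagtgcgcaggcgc
Atp5g2, chr15:102671048-102671134, minus strand: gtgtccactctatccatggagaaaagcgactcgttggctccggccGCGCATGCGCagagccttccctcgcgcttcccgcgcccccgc
Ndufa11, chr17:56717657-56717756, plus strand: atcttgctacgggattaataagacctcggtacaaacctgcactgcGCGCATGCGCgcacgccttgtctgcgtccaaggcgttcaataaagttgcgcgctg
The palindrome began 50, 162, 42 and 60 bases before the start site in Atp5k, Cox6a1, Atp5g2 and Ndufa11. In Uqcrc1, the fifth member, it lay after the start. A match in these letters is a description and not a binding site. Among these 4 genes, Ndufa11, an accessory subunit of complex I, was at 145, 60.2 and 95.2 CPM in WT and 80.8, 124 and 101 CPM in cKO, and Atp5k, a small membrane subunit of complex V, at 18.1, 7.57 and 11.3 CPM and 12.4, 15.3 and 9.47 CPM. WT replicate 2 was the lowest library in all 4.

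Other genes of the pathway were read from lists. Of 22 assembly factors of complex IV tested, 16 were above 0 with all libraries and 6 without WT replicate 2 (medians 0.16 and -0.10), none with an unadjusted p under 0.05. The most abundant of them, Coa5, was at 108, 29.3 and 94.1 CPM in WT and 109, 110 and 120 CPM in cKO. Every cKO value lay above every WT value, as in 5.01% of all genes, and WT replicate 1 was the closest to them. Its log2 fold change was 0.55 (SE 0.42) with all libraries and 0.16 (SE 0.13) without WT replicate 2. Of 16 assembly factors of complex I, 8 and 6 were above 0 in the fits with and without WT replicate 2, and 1 had an unadjusted p under 0.05. That factor was Acad9, which lies in the complex I assembly complex: it was at 40.9, 56.6 and 46.2 CPM in WT and 35.1, 34.3 and 34.9 CPM in cKO. Its log2 fold change was -0.46 (SE 0.17, unadjusted p = 0.0280, adjusted p = 0.984) with all libraries and -0.33 (SE 0.13, unadjusted p = 0.0312, adjusted p = 0.997) without WT replicate 2. All cKO values of Acad9 lay below all WT values, as in 3.23% of all genes.

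Of the 4 assembly factors of complex II, 2 were above 0 with all libraries and 0 without WT replicate 2. The counts were 4 and 3 for the 6 factors of complex III, and 0 and 0 for the 3 factors of complex V. None of these had an unadjusted p under 0.05. Among 14 TCA cycle enzymes, 10 were above 0 with all libraries and 7 without WT replicate 2 (medians 0.18 and 0.02). Cs, citrate synthase, was at 246, 174 and 216 CPM in WT and 226, 248 and 258 CPM in cKO. Among 17 electron carrier genes, which include Cycs (cytochrome c) and the enzymes of ubiquinone synthesis, 5 were above 0 in each fit. Cycs was at 281, 203 and 207 CPM in WT and 211, 243 and 184 CPM in cKO, so that WT replicates 2 and 3 were close to each other for this gene. Of 4 listed subunits or inhibitors outside the Nduf, Cox and Atp5 numbering, 1 and 0 were above 0. This list also held Atp5md, and its Atpif1, the inhibitor of complex V, was at 131, 35.2 and 81.8 CPM in WT and 79.8, 105 and 97 CPM in cKO. The 13 subunits encoded by mitochondrial DNA were not analysed here.

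Of 16 regulators of mitochondrial biogenesis, 6 were above 0 with all libraries and 11 without WT replicate 2. Nrf1 was at 58.9, 67.4 and 64.5 CPM in WT and 68.7, 61.2 and 65.9 CPM in cKO (log2 fold changes 0.04 and 0.08, SE 0.13 in both fits). Gabpa, the DNA-binding subunit of GABP, was at 32.7 to 41.0 CPM in WT and 35.6 to 39.0 CPM in cKO. Yy1, the most abundant regulator, was at 101, 135 and 109 CPM in WT and 117, 104 and 106 CPM in cKO. WT replicate 2 was below both other WT libraries in 4 of the 16 regulators, against 73 of the 83 members. Nrf1, Gabpa and Yy1 were not among these 4, while Esrra was, at 29.7, 18.8 and 29.3 CPM in WT. No share over all genes stands beside the counts of 4 and 73. Transcript lengths of the regulators were not compared with those of the members. Polg2, the accessory subunit of the mitochondrial DNA polymerase, was the 1 regulator with an unadjusted p under 0.05, at 25.6, 36 and 32.3 CPM in WT and 24.0, 21.6 and 18.8 CPM in cKO. Its log2 fold change was -0.54 (SE 0.21, unadjusted p = 0.0340) with all libraries and -0.43 (SE 0.16, unadjusted p = 0.0271) without WT replicate 2, with adjusted p values of 0.984 and 0.997.

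Markers of Tregs and of other cell types were read from lists. The 7 Treg and T cell markers tested summed to 3963 to 5257 CPM in WT and 4294 to 4761 CPM in cKO. Macrophage and dendritic cell markers summed to 150 to 610 CPM in WT and 198 to 784 CPM in cKO, lung epithelium to 36.5 to 101 CPM and 37.9 to 68.5 CPM, endothelium to 60.4 to 79.9 CPM and 69.8 to 93.7 CPM, B cells to 14.7 to 23.7 CPM and 12.0 to 47.5 CPM, and CD8 T and NK cells to 5.22 to 21.0 CPM and 18.5 to 20.1 CPM. Nearly all of the endothelium sum was Pecam1, with a mean of 75.4 CPM over the 6 libraries. The other endothelium markers, Cdh5 and Cldn5, had means of 0.388 and 0.206 CPM. The sums of heart and skeletal muscle (0.574 to 2.76 CPM and 0.673 to 0.889 CPM), stroma (0 to 1.72 CPM and 0.961 to 2.76 CPM) and testis and sperm (0 to 1.05 CPM and 0.0889 to 1.25 CPM) were low. Neutrophil markers summed to 2.39 to 11 CPM in WT and 7.98 to 13.3 CPM in cKO, and red blood cell markers to 0 to 9.49 CPM and 10.7 to 35.9 CPM. In 2 of the 4 neutrophil markers the cKO group was higher at an unadjusted p under 0.05 in both fits. S100a9, a calcium-binding protein of neutrophils, was at 0 to 0.208 CPM in WT and 1.11 to 1.91 CPM in cKO. Retnlg was at 0 in all WT libraries and 0.625 to 1.51 CPM in cKO. For both S100a9 and Retnlg the adjusted p by edgeR was 0.984 with all libraries and 0.997 without WT replicate 2. The more abundant neutrophil markers, S100a8 and Csf3r, had no unadjusted p under 0.05 in either fit. For S100a8, WT replicate 2 was the highest library, at 7.05 CPM against at most 5.43 CPM in cKO. Csf3r was at 1.96 to 4.48 CPM in WT and 2.18 to 4.49 CPM in cKO. With and without WT replicate 2, log2 fold changes were 0.33 (SE 0.93) and 1.39 (SE 0.69) for S100a8. For Csf3r they were -0.08 (SE 0.59) and 0.02 (SE 0.45). In 2 of the 4 red blood cell markers, the hemoglobin genes Hba-a2 and Hbb-bs, the cKO group was higher at an unadjusted p under 0.05 without WT replicate 2 (log2 fold changes 2.22 and 2.17, SE 0.81 in both, adjusted p = 0.997 by edgeR) and not with all libraries. The part of such cells in the subunit levels was not tested.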

How the data were processed

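Per the labels, total RNA of Tregs was made into libraries with a SMARTER mRNA kit. The study's methods describe paired-end sequencing on a BGI platform and alignment to GRCm38. The submitters' processing notes name Bowtie2 (version 2.3.4.3) and RSEM (version 1.3.1). Expected counts, one value per gene symbol and library, were deposited by the authors without normalization, and 21.6% of values were not whole numbers within a tolerance of 1e-06. Strand setting and annotation are not given in the sources used here.

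Expected counts were rounded and scaled by TMM. The 15315 genes with at least 1 count were tested with edgeR's quasi-likelihood test (edgeR version 4.0.16, limma version 3.58.1, R version 4.3.3), with genotype as the only term, a threshold of 0.05 and Benjamini-Hochberg adjustment over all genes, using all 6 libraries and again without WT replicate 2. Replicates of a group differed by more than sampling noise (chi-square per degree of freedom 21.4 to 265), so each was used as 1 sample. Library totals of 19032620 to 23159815 counts set the precision. Gene positions and lengths came from GENCODE vM21 and RefSeq, both on GRCm38.

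The members and lists were chosen with earlier results of these data known. Grouping by role within a complex, the length classes and the motifs were added after the data were seen. Named genes were Xrcc6, the 3 most abundant members of each complex, all Sdh genes and Cyc1, nuclear core subunits of complexes I and III, isoform sets, members with the smallest unadjusted p under 0.05, the 3 highest and 3 lowest fold changes per fit at 10 CPM or more, and list genes with an unadjusted p under 0.05 or the highest level. Of these, 1 member is not reported here by name or shown in the heat map. Genes shown for the motif, the smallest p, the length or the steadiness were chosen after their values were seen. The fits were tested on simulated data in which 200 genes differed by 2 on the log2 scale, of which edgeR recovered 166 among 15259 genes with all libraries (10 unchanged genes called) and 200 among 15252 genes without WT replicate 2 (27 called). That difference is larger than the change of any member in either fit, so the recovery does not apply to changes of the size seen here. No simulated library was made to stand apart as WT replicate 2 did. Alternatives were scaling by library size only or by median of ratios, the filter filterByExpr (edgeR), a robust dispersion, limma's voomWithQualityWeights, DESeq2 (version 1.42.0), a replicate block, and leaving out each library in turn. A DESeq2 fit with no WT replicate 2 was chosen later, with the data seen.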

Additional observations from a re-analysis of the deposited data

How the results depend on the processing

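The number of members above 0 was 66 of 83 with all libraries and edgeR, and 43 with voomWithQualityWeights, which gave WT replicate 2 a weight of 0.0965 against 0.887 to 2.84 for the other libraries. It was 14 with DESeq2 and no WT replicate 2. Leaving out each library in turn gave 14 to 74, with 14 without WT replicate 2 and 74 without WT replicate 1. Under DESeq2, median-of-ratios scaling, library size only, filterByExpr (80 members) and a robust dispersion it lay between 57 and 67. The median log2 fold change of all members was 0.15, with extremes of -0.11 (no WT replicate 2) and 0.42 (no WT replicate 1). Members higher in cKO at an unadjusted p under 0.05 numbered 0 to 2 when a library was left out, the 2 being Ndufa3 and Uqcr11 without WT replicate 1. Members lower numbered 0 to 1, being Ndufb4b without WT replicate 2 and Ndufs7 without WT replicate 3, and 1 with DESeq2 and no WT replicate 2 (Ndufb4b). Among all genes, edgeR had 273 higher and 601 lower of 15312 at that threshold without WT replicate 1. The counts were 232 and 229 of 15302 without WT replicate 2, and 287 and 288 of 15302 without WT replicate 3. DESeq2 with no WT replicate 2 had 197 higher and 173 lower of 15302. The cause of these shifts was not tested. Pairing by replicate number was not used in the main fits. Same-numbered libraries correlated at 0.114, -0.0941 and 0.211 in their deviations from the group means, and different-numbered ones at -0.280 to 0.161. With 3 libraries a group, these values cannot decide whether the numbers mark pairs. With the replicate block the median over members was 0.22, with 69 above 0 and none called, and 39 genes were higher and 46 lower at an unadjusted p under 0.05 against 144 and 133 without it. Over all genes, those counts were 39 and 101 with filterByExpr (12344 genes) and 262 and 281 with voomWithQualityWeights, and DESeq2 called 2 genes at an adjusted p under 0.05 where edgeR called 0. With 3 libraries a group and a median standard error of 0.32 with all libraries and 0.21 without WT replicate 2, differences within these errors were not detectable.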
